A study of Mus musculus with 2 samples.

Results

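Messenger RNA of 10 genes that set the threshold for mitochondrial apoptosis was followed in single-nucleus RNA sequencing of CIC::DUX4 sarcomas from mice. The genes are Mcl1, Bcl2, Bcl2l1, Bcl2l2, Bax, Bak1, Bcl2l11, Bbc3 and Pmaip1 of the BCL2 family, and Xiap. They were chosen by symbol, and all 10 were found among the 19059 features of the count matrices. The tumors came from the dFLEx CDS mouse, in which the CIC::DUX4 fusion sits at the Rosa26 locus behind the ubiquitous CAG promoter and is switched on by Cre and FLP recombinases, delivered as plasmids by electroporation into hind limb muscle. All tumors of both groups carry the fusion. There were 2 groups. The untreated group, labelled as heterozygous for the dFLEx CDS allele, held 4 tumors, and the Minnelide group held 4 tumors of mice dosed with 0.42 mg/kg for 21 days, for which the labels name the model but no genotype. Mice of both sexes, electroporated as young adults, were used per the study's methods. In the tumors analyzed here, the Y-linked genes examined were all low in untreated tumor 4 only. Minnelide releases triptolide in the body, a diterpene that blocks transcription initiation by binding the XPB subunit of TFIIH. The study asked why mice differ in their response to Minnelide and compared clusters and predicted differentiation state of their tumors. It examined apoptosis in cultured human CIC::DUX4 sarcoma cell lines, and apoptosis is the question that these genes bear on.

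Apoptosis by the mitochondrial route begins when the pore formers BAX and BAK assemble in the outer mitochondrial membrane and let cytochrome c out. The survival proteins MCL1, BCL2, BCL-XL (from Bcl2l1) and BCL-W (from Bcl2l2) hold BAX and BAK in check, and the BH3-only proteins BIM (from Bcl2l11), PUMA (from Bbc3) and NOXA (from Pmaip1) relieve that hold. XIAP acts after the pore has opened, by binding and blocking caspases. MCL1 is known for a short-lived protein and a short-lived transcript, so it is often examined when transcription is inhibited.

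In GRCm39 coordinates, Mcl1 lies at chr3:95566026-95570487 on the plus strand, Bcl2 at chr1:106465908-106642060 on the minus strand, Bcl2l1 at chr2:152622582-152673655 on the minus strand, and Bcl2l2 at chr14:55120778-55126551 on the plus strand. Xiap lies on the X chromosome, at chrX:41148481-41198541 on the plus strand. Bax is at chr7:45111015-45116325 and Bak1 at chr17:27238784-27247983, both on the minus strand. The BH3-only genes Bcl2l11, at chr2:127967958-128004476, Bbc3, at chr7:16042318-16052130, and Pmaip1, on chromosome 18, are on the plus strand. Annotated exons make up 5.23% of the 176.2 kb of Bcl2, against 78.24% of the 4.5 kb of Mcl1. Nuclear RNA holds much unspliced transcript, and reads in introns were counted per the methods. Whether the features came from a probe set, which would hold no intronic reads, is not settled. Bax, Bak1, Bcl2l2 and Bcl2l11 overlap other coding genes of the annotation by position, without regard to strand. Of those coding genes 1, Ggnbp1 beside Bak1, has a feature of its own in the matrices. The effect of the overlap on the Bak1 counts was not tested. Levels below are given as CPM, that is, UMIs of the gene scaled to the total UMIs of the same tumor and class of nuclei. They are not corrected for length and are compared within a gene only. A lower CPM in a sum of nuclei cannot tell fewer expressing cells from less RNA per cell.

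The 8 tumors had 18487409 to 73211599 UMIs in 5210 to 12615 deposited nuclei, and 59907 nuclei were retained. Median UMIs per nucleus were 883 in untreated tumor 4 and 2329 or more in the others. Clustering without the 10 genes gave 27 clusters, of which 20 could be named from marker genes: 10 tumor-like clusters (36234 nuclei) and classes called fibroblast-like (6723), myocyte-like (4583), endothelial-like (3110), macrophage-like (1314) and osteoclast-like (678). The other 7265 nuclei, in 7 clusters, stayed unnamed. Each of the 10 tumor-like clusters drew over 90% of its nuclei from 1 tumor. One of 6471 nuclei, mostly from untreated tumor 4, had a median of 756 UMIs. It also had raised fibroblast, myocyte, endothelial, pericyte and osteoclast markers. Its Bcl2 was at 587 CPM and its Mcl1 at 81.1 CPM. A tumor-like cluster of 2300 nuclei of the same tumor had 910 and 42.7 CPM. The tumor-like values of untreated tumor 4 mix both. Nucleus barcodes held fixed bases at positions 8 and 9, which were CA, GT, TC and AG in tumors 1 to 4 of each group. Tumors with the same number in the 2 groups thus have the same bases and share 49 to 132 barcodes. All other pairs differ in these bases and share 0. The same bases recur in both groups, so the libraries came from at least 2 pools or channels. Which tumors shared a pool is not stated in the labels, and pool and treatment cannot be told apart. Untreated tumor 1 stood apart from the rest. Its tumor-like nuclei carried 3754 CPM of the 11 endothelial markers together, against 409 to 784 CPM in the other 7 tumors, and 1102 CPM of the 11 macrophage markers, against 208 to 464 CPM. Both sums were highest in this tumor in every other named class too. Its fibroblast-like nuclei, for example, had 1279 CPM of endothelial markers (others 310 to 596) and 589 CPM of macrophage markers (others 133 to 294). The 8 tumor markers, which are CIC::DUX4 target genes, were lowest in its tumor-like nuclei, at 13249.5 CPM against at least 14405 CPM in the other tumors. They were lowest in this tumor in every other named class too. The study reports tumor cells with endothelial features and reduced activity of the fusion in a minority of its untreated tumors. Whether untreated tumor 1 holds such cells was not tested. Results that rest on this tumor are given with and without it.

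Over all retained nuclei, 219264 UMIs of Bcl2 were counted, 43112 of Xiap, 23773 of Mcl1, 22213 of Bcl2l11, 20556 of Bcl2l1, 10829 of Bax, 7016 of Bcl2l2, 3570 of Pmaip1, 1762 of Bak1 and 947 of Bbc3. The 3 scarcest genes were thus measured with little precision in the small classes. A gene had no count in a named class of a single tumor in 8 cases. Bak1 and Bbc3, for example, were not detected in the 29 myocyte-like nuclei of Minnelide tumor 4, where 0 of 111763 UMIs allows up to 26.8 CPM, counting error only.

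The survival genes differed in where they were highest. Bcl2 was highest in tumor-like nuclei. Its median over the 8 tumors was 978 CPM there, with a range of 763 to 1582 CPM, followed by endothelial-like nuclei at 622 CPM, macrophage-like at 386, osteoclast-like at 374, fibroblast-like at 314 and myocyte-like at 161 CPM. Tumor-like nuclei stood above every other class in 8 of 8 tumors. Endothelial-like nuclei likewise stood above macrophage-like nuclei in 8 of 8. Further down the order was less settled, with osteoclast-like above fibroblast-like nuclei in 4 of 8 tumors and fibroblast-like above myocyte-like in 5 of 8.

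Mcl1 was lowest in the class in which Bcl2 was highest. Its median was 182 CPM in macrophage-like nuclei, 147 in osteoclast-like, 99.8 in endothelial-like, 99.4 in fibroblast-like, 89.9 in myocyte-like and 58.0 CPM in tumor-like nuclei. Each of the other 5 classes was above the tumor-like nuclei of the same tumor in 8 of 8 tumors, by a median ratio of 1.47 in myocyte-like and 3.16 in macrophage-like nuclei. Endothelial-like, fibroblast-like and myocyte-like nuclei could not be ranked, since neighbors in that order were above one another in 4 or 5 of 8 tumors.

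Bcl2l1 was highest in macrophage-like nuclei, at a median of 129.7 CPM, and was above the endothelial-like level of the same tumor in 8 of 8 tumors. The medians of the other classes lay between 50.1 CPM in fibroblast-like and 67.8 CPM in endothelial-like nuclei, and endothelial-like and tumor-like nuclei, at 66.0 CPM, were above each other in 4 of 8 tumors each. Bcl2l2 varied little among the classes, with medians of 29.3 CPM in tumor-like, 26.5 in fibroblast-like, 25.0 in endothelial-like, 21.0 in osteoclast-like, 19.1 in macrophage-like and 17.6 CPM in myocyte-like nuclei. Myocyte-like nuclei were nevertheless below tumor-like nuclei in Bcl2l2 in 8 of 8 tumors. Xiap was highest in endothelial-like nuclei, at a median of 281 CPM against 158 CPM in tumor-like nuclei, and was the higher of these classes in 8 of 8 tumors. Osteoclast-like (206 CPM) and macrophage-like nuclei (204 CPM) followed, and myocyte-like nuclei were lowest at 113 CPM.

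The pore-forming genes are Bax and Bak1. Median Bax lay between 30.4 CPM in osteoclast-like and 44.0 CPM in myocyte-like nuclei, and no class was above the tumor-like nuclei in more than 6 of 8 tumors. Median Bak1 ranged from 4.95 CPM in osteoclast-like to 10.3 CPM in macrophage-like nuclei, with 6.23 CPM in tumor-like nuclei.

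Among the BH3-only genes, Bcl2l11 was highest in osteoclast-like nuclei at a median of 179 CPM, followed by macrophage-like (125), endothelial-like (120.1), tumor-like (70.9), fibroblast-like (65.9) and myocyte-like nuclei (44.5 CPM). Osteoclast-like nuclei exceeded the tumor-like nuclei of their tumor in 8 of 8 tumors, and macrophage-like and endothelial-like nuclei did so in 7 of 8. Pmaip1 was highest in macrophage-like nuclei, at a median of 20.4 CPM, with tumor-like nuclei next at 14.4 CPM and myocyte-like nuclei lowest at 6.77 CPM. Macrophage-like nuclei were above tumor-like nuclei in 7 of 8 tumors. Bbc3 stayed between 3.02 and 4.54 CPM in 5 classes and reached 7.88 CPM in osteoclast-like nuclei, which held 36 to 197 nuclei per tumor. These class levels are descriptions without a test, because the classes were drawn from the same nuclei.

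**Figure D1:**
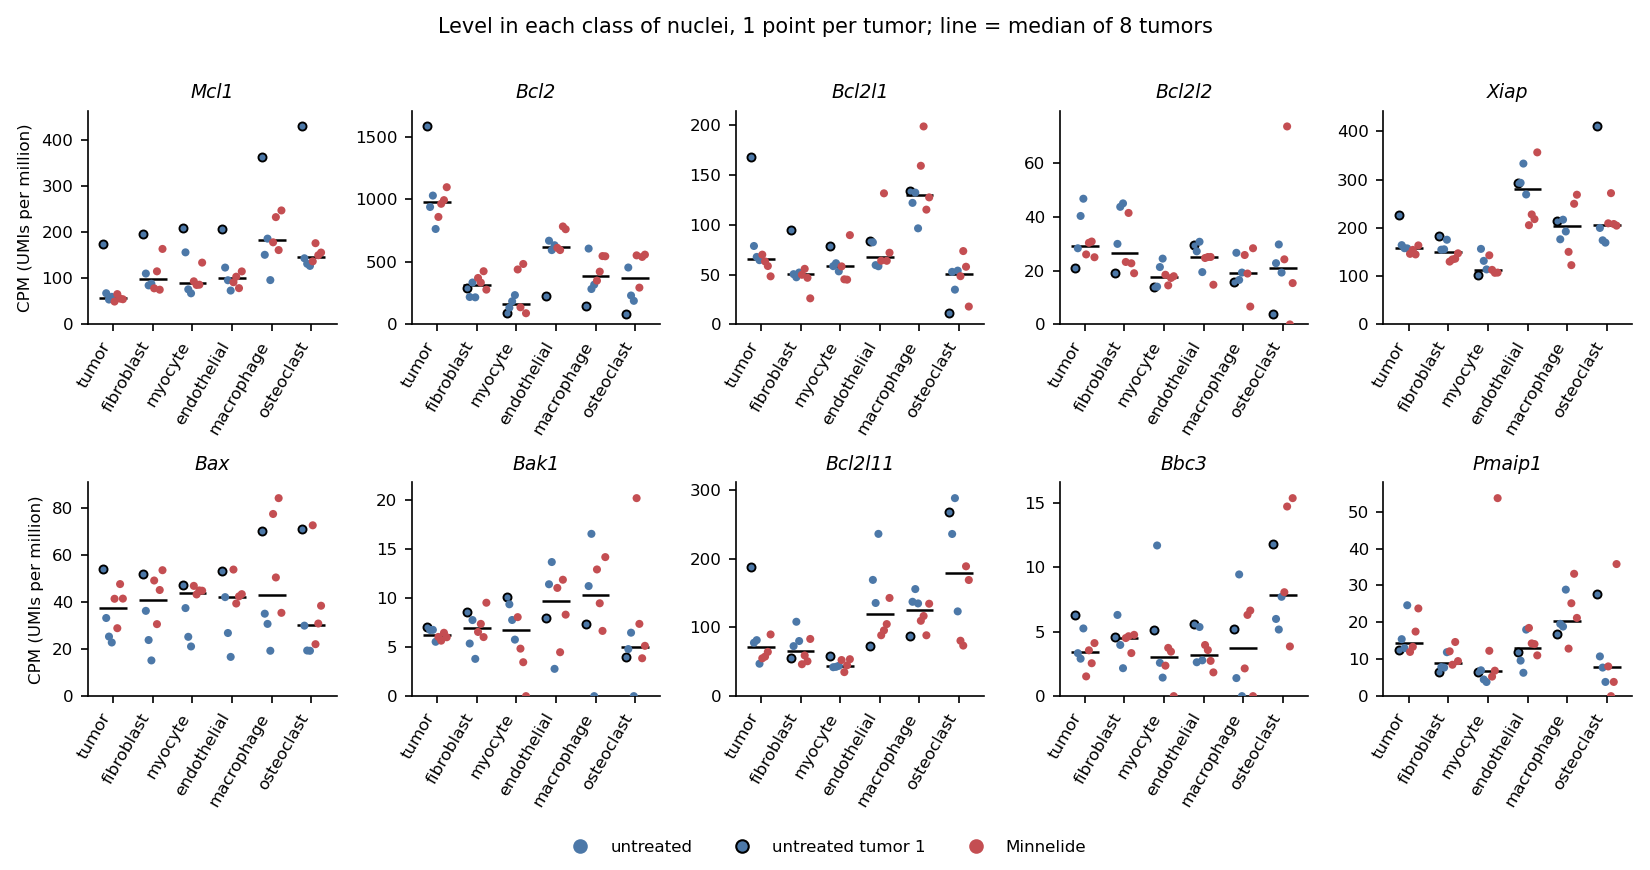
Level of each gene (CPM, linear axis from 0, a separate scale per gene) in the 6 named classes of nuclei, with 1 point per tumor, untreated in blue, Minnelide in red, untreated tumor 1 ringed in black, and a line at the median of 8 tumors. Bcl2 is highest in tumor-like nuclei (median 978 CPM), where Mcl1 is lowest (58.0 CPM), and the ringed tumor 1 lies above every other tumor for Mcl1 in each class.

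The tumor markers were also counted in the other classes. The 8 markers, which are CIC::DUX4 target genes such as Etv1, Etv4 and Etv5, summed in fibroblast-like nuclei to a median of 31.4% of their CPM in the tumor-like nuclei of the same tumor, and to 22.0% in myocyte-like, 43.8% in endothelial-like, 53.8% in macrophage-like and 39.8% in osteoclast-like nuclei. Bcl2 stood at nearly the same median shares in fibroblast-like and osteoclast-like nuclei and at lower ones in myocyte-like and macrophage-like nuclei. Its CPM was 30.5% of the tumor-like level in fibroblast-like, 16.1% in myocyte-like, 42.7% in macrophage-like and 39.5% in osteoclast-like nuclei, and its share was above that of the markers in 3, 1, 2 and 2 of 8 tumors. Endothelial-like nuclei differed, with a Bcl2 share of 70.3% that exceeded the marker share in 7 of 8 tumors. The exception was untreated tumor 1, with a Bcl2 share of 14.4% against a marker share of 16.6%.

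Mcl1, Xiap and Bcl2l11 were above the marker share in 8 of 8 tumors in every one of the 5 classes. Their medians ranged from 147% to 316% of the tumor-like level for Mcl1, from 73.5% to 161% for Xiap and from 60.3% to 225% for Bcl2l11. The part of free RNA, doublets or expression by these classes in the marker and Bcl2 counts outside the tumor-like nuclei was not tested.

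**Figure D2:**
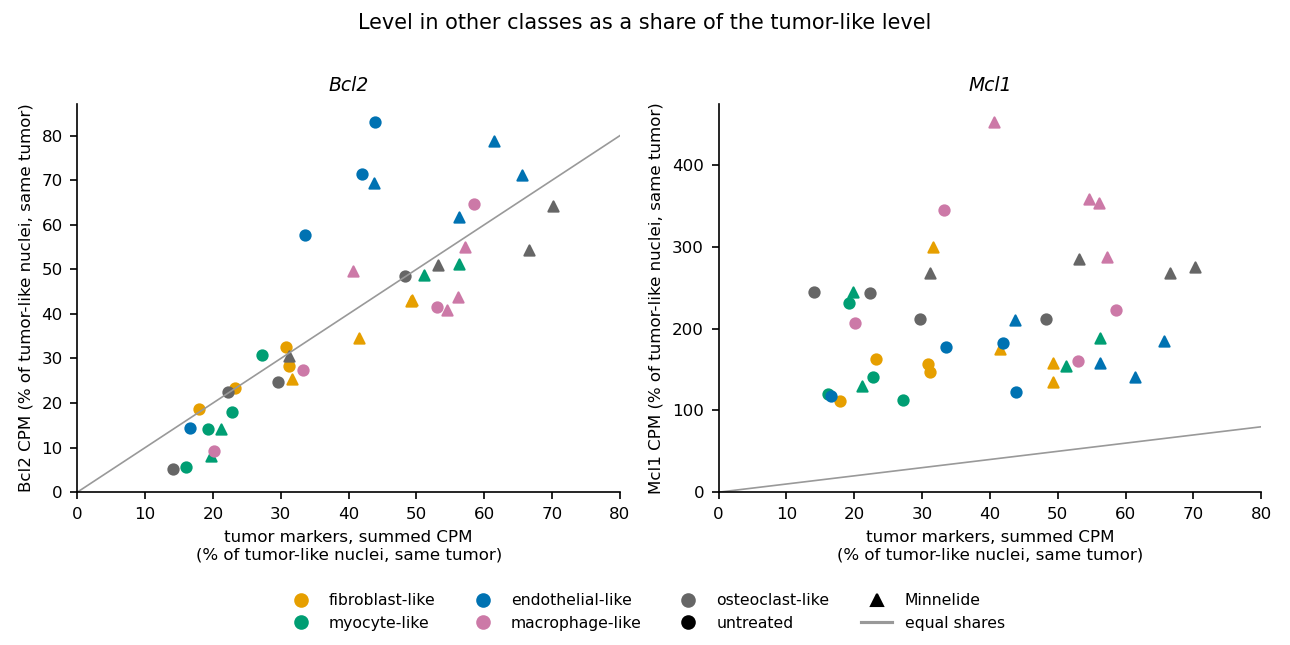
Level of Bcl2 (left) and Mcl1 (right) in 5 other classes as a percentage of the tumor-like level of the same tumor (vertical axis), against the same percentage for the summed CPM of the 8 tumor markers (horizontal axis); points are single tumors, circles untreated, triangles Minnelide, and the line marks equal shares. Outside endothelial-like nuclei most Bcl2 points lie near or below the line. Endothelial-like Bcl2 points are above it in 7 of 8 tumors, and every Mcl1 point is above the line.

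Within tumor-like nuclei, untreated tumor 1 lay well above the other tumors for Mcl1, Bcl2, Bcl2l1, Xiap and Bcl2l11. This was not so for Bcl2l2 and Pmaip1, which were highest in untreated tumor 4. Mcl1 stood at 175, 67.7, 54.0 and 59.9 CPM in untreated tumors 1 to 4 and at 49.7, 65.8, 56.1 and 54.7 CPM in Minnelide tumors 1 to 4. Tumor 1 was thus 3.13 times the median of the other 7 tumors, which lay within 49.7 to 67.7 CPM whatever their group. Bcl2 was at 1582, 938, 1029 and 763 CPM in the untreated and at 859, 964, 993 and 1096 CPM in the Minnelide tumors, again with tumor 1 highest. The groups overlapped for both genes.

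Bcl2l1 levels were 168, 78.6, 67.6 and 64.4 CPM in the untreated and 69.9, 63.1, 58.5 and 48.2 CPM in the Minnelide tumors, and the Minnelide tumors filled the lower part of the range with the exception of tumor 1 of that group. Bcl2l2 ran the other way in untreated tumor 1, which was lowest at 21.1 CPM, while untreated tumors 2 to 4 had 28.3, 40.3 and 46.7 CPM and the Minnelide tumors 26.0, 30.3, 30.8 and 24.9 CPM. For Xiap the untreated tumors had 227, 164, 158 and 158 CPM and the Minnelide tumors 146, 154, 145 and 164 CPM, an interval of 145 to 164 CPM for all tumors but untreated tumor 1.

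Bax, which promotes the pore, measured 54.0, 33.2, 25.3 and 22.8 CPM in the untreated and 41.3, 28.8, 47.6 and 41.4 CPM in the Minnelide tumors. The groups overlapped, with untreated tumor 1 above every Minnelide tumor and Minnelide tumor 2 below untreated tumors 1 and 2. Bak1 varied little, between 5.53 and 6.99 CPM in the untreated and between 5.64 and 6.44 CPM in the Minnelide tumors.

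Bcl2l11 reached 188 CPM in untreated tumor 1 and was at 77.6, 81.4 and 47.1 CPM in untreated tumors 2 to 4, against 55.0, 57.5, 64.3 and 89.7 CPM in the Minnelide tumors. Bbc3, from 17 to 220 UMIs per tumor, was at 6.33, 3.33, 2.90 and 5.25 CPM in the untreated and 1.53, 3.55, 2.55 and 4.11 CPM in the Minnelide tumors. Pmaip1 measured 12.5, 15.4, 13.02 and 24.6 CPM in the untreated and 12.0, 13.4, 17.5 and 23.8 CPM in the Minnelide tumors. No gene of the 10 separated the groups in tumor-like nuclei.

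**Figure D3:**
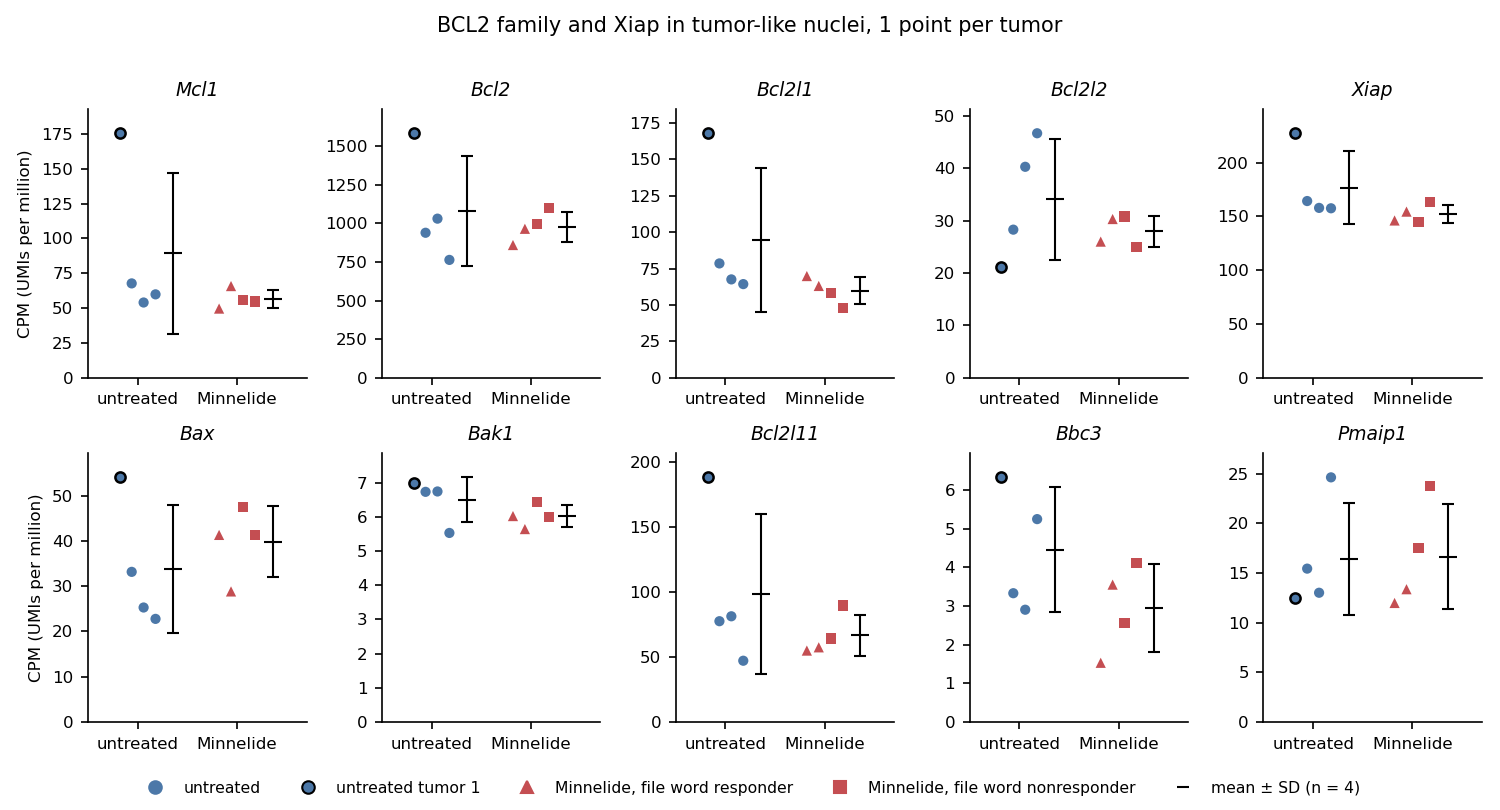
Level of each gene in tumor-like nuclei (CPM, linear axis from 0) for the 4 untreated and 4 Minnelide tumors, 1 point per tumor, with mean ± SD beside each group; the shape of the Minnelide points gives the response word in the file name, and untreated tumor 1 is ringed. The groups overlap for all 10 genes, and the ringed tumor is the highest of the 8 for Mcl1 (175 CPM), Bcl2, Bcl2l1, Xiap, Bax, Bak1, Bcl2l11 and Bbc3.

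The first comparison asked whether the genes differed between the Minnelide and untreated tumors, with the sums per tumor as replicates. In tumor-like nuclei, edgeR's quasi-likelihood test called none of the 10 at an adjusted p under 0.05, where 0% of all 12926 tested genes were called, and DESeq2 called 0 of the 10 and 128 of all genes. At an unadjusted p under 0.05 edgeR again found 0 of the 10, against 10.2% of all tested genes. Ranges did not overlap for 0 of the 10 and for 7.68% of all tested genes.

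Mcl1 was at 89.3 ± 57.7 CPM (SD, n = 4) in untreated and 56.6 ± 6.75 CPM (SD, n = 4) in Minnelide tumors, a log2 fold change of -0.47 (SE 0.32, edgeR adjusted p = 0.603). Without untreated tumor 1 it was -0.01. The change of Bcl2l1 was -0.49 (SE 0.27, edgeR adjusted p = 0.533), from 94.6 ± 49.3 to 59.9 ± 9.12 CPM (SD, n = 4 each), and -0.14 without that tumor. Both differences were within the spread between tumors, and each rested largely on the single high tumor.

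Bcl2 changed least, from 1078 ± 354 to 978 ± 97.7 CPM (SD, n = 4 each), with a log2 fold change of 0.02 (SE 0.21, edgeR adjusted p = 0.981) after scaling of the library sizes, and 0.19 without untreated tumor 1. Xiap was similar, at 177 ± 33.8 and 152 ± 8.65 CPM (SD, n = 4 each) and a log2 fold change of -0.06 (SE 0.12, edgeR adjusted p = 0.856), which became 0.02 without untreated tumor 1. Bcl2l2 gave -0.17 (SE 0.28), and -0.37 without that tumor.

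Bax had the highest positive estimate of the 10, a log2 fold change of 0.40 (SE 0.26, edgeR adjusted p = 0.575) from 33.8 ± 14.2 to 39.8 ± 7.86 CPM (SD, n = 4 each). Leaving out untreated tumor 1 raised it to 0.65 (edgeR adjusted p = 0.501). Bak1 gave 0.03 (SE 0.19). The BH3-only genes gave -0.38 (SE 0.36) for Bcl2l11, -0.46 (SE 0.38) for Bbc3 and 0.16 (SE 0.32) for Pmaip1, and 0.04, -0.31 and 0.02 without untreated tumor 1. Over the 10 genes, 4 estimates were above and 6 below 0, where 49.8% and 50.2% of all tested genes were, with a median of -0.12 beside 0.00 over all tested genes.

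**Figure D4:**
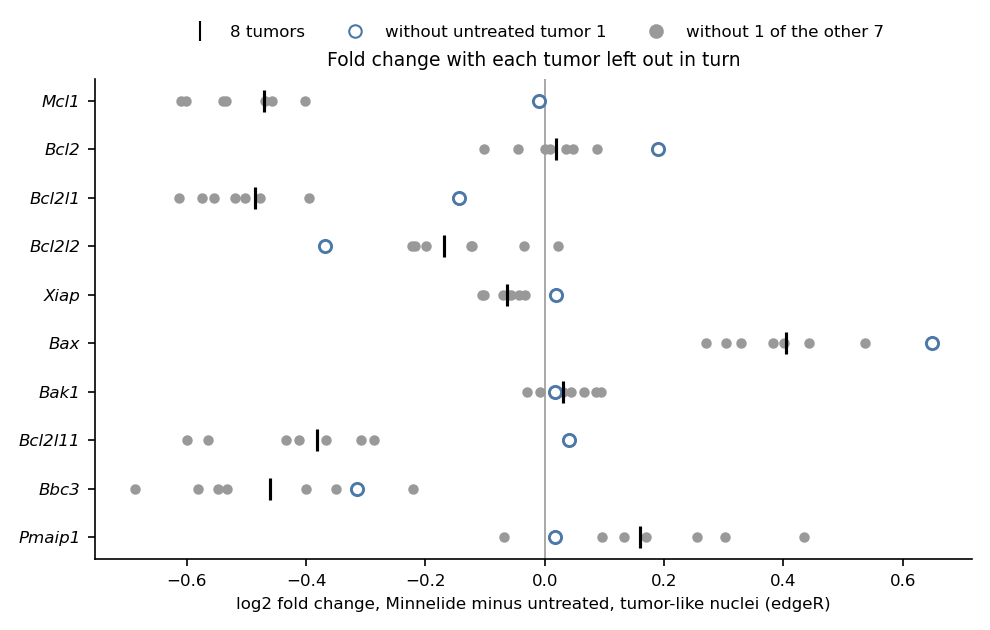
Log2 fold change (Minnelide minus untreated, edgeR) of each gene in tumor-like nuclei with all 8 tumors (black bar), without untreated tumor 1 (open circle) and without each of the other 7 tumors in turn (gray points). Leaving out untreated tumor 1 moves Mcl1 from -0.47 to -0.01 and Bcl2l11 from -0.38 to 0.04, and raises Bax from 0.40 to 0.65.

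In the sum of all retained nuclei, edgeR and DESeq2 called 0 of the 10 genes, while over all genes edgeR called 0% of 13811 and DESeq2 called 181. By edgeR, 0 of the 10 passed an unadjusted p under 0.05, beside 9.96% of tested genes. The ranges overlapped for all 10, while 7.57% of tested genes did not overlap. The log2 fold changes lay between -0.47 for Bbc3 and 0.47 for Bax, with -0.43 for Mcl1 (SE 0.30, edgeR adjusted p = 0.629) and 0.15 for Bcl2 (SE 0.23, edgeR adjusted p = 0.831). Without untreated tumor 1 the estimate for Mcl1 was -0.05.

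Of the 5 classes tested, fibroblast-like nuclei held the only separation of the groups. Xiap stood at 183, 155, 156 and 175 CPM in the untreated and at 130.1, 135, 136 and 147 CPM in the Minnelide tumors, so every Minnelide tumor was below every untreated one. Non-overlapping ranges with the Minnelide tumors lower were found for 3.08% of the 11453 genes tested in this class, and non-overlapping ranges in either direction for 4.82%. The means were 167 ± 14.3 and 137 ± 7.29 CPM (SD, n = 4 each), a log2 fold change of -0.24 (SE 0.10) with an unadjusted edgeR p of 0.0458 and an adjusted p of 0.751. Without untreated tumor 1 it was -0.23, with an adjusted p of 0.609.

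Bcl2 in fibroblast-like nuclei was at 294, 219, 335 and 217 CPM in the untreated and 371, 334, 425 and 278 CPM in the Minnelide tumors. The groups overlapped, with Minnelide tumor 4 below 2 untreated tumors. The log2 fold change was 0.45 (SE 0.20) with an unadjusted edgeR p of 0.0455 and an adjusted p of 0.75. Summed tumor markers in these nuclei moved the same way, from 2375 to 5203 CPM in the untreated to 5149 to 10095 CPM in the Minnelide tumors, with all 8 markers detected in each tumor, and their part in the Bcl2 difference was not tested. Xiap and Bcl2 were the 2 genes of the 10 with an unadjusted p under 0.05 there, beside 6.49% of all tested genes, and edgeR (0% of tested genes) and DESeq2 (30 of all genes) called 0 of the 10.

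Bcl2 estimates were positive in the other classes too, at 0.78 (SE 0.51) in myocyte-like, 0.40 (SE 0.34) in endothelial-like and 0.46 (SE 0.38) in macrophage-like nuclei. Tumor markers were again higher in part of the Minnelide tumors. In myocyte-like nuclei they summed to 2127 to 4544 CPM in the untreated tumors and to 11510.5, 3048, 9816 and 3212 CPM in Minnelide tumors 1 to 4, and Bcl2 there was at 439, 137, 483 and 89.5 CPM in the same 4 tumors. The 2 Minnelide tumors with the high marker sums were the 2 with high Bcl2. Whether Minnelide acted differently on Bcl2 in tumor-like and fibroblast-like nuclei was tested as an interaction, which gave -0.47 (SE 0.25, edgeR adjusted p = 0.740). None of the 10 genes was called in the interaction by edgeR (0% of 12697 genes) or DESeq2 (16 of all genes), and 0 passed an unadjusted p under 0.05, beside 7.05% of tested genes.

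Bax estimates were positive in all 5 classes tested, at 0.40 in tumor-like, 0.53 (SE 0.33) in fibroblast-like, 0.41 (SE 0.29) in myocyte-like, 0.42 (SE 0.28) in endothelial-like and 0.59 (SE 0.38) in macrophage-like nuclei. The classes come from the same 8 tumors and are not independent of each other. In endothelial-like nuclei Bax was at 53.2, 42.0, 26.8 and 16.7 CPM in the untreated and 53.7, 39.3, 42.3 and 43.3 CPM in the Minnelide tumors, so the untreated tumors spread wider than the Minnelide tumors and covered nearly their range. The adjusted p of Bax was 0.575 or higher in every class by edgeR.

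In the myocyte-like, endothelial-like and macrophage-like classes some genes were too scarce to test. Bbc3 did not pass the filter in myocyte-like, endothelial-like or macrophage-like nuclei, and Bcl2l2, Bak1 and Pmaip1 did not in macrophage-like nuclei. Of the 9, 9 and 6 genes tested there, 0 were called by edgeR (0% of tested genes in each class) or DESeq2 (4, 21 and 0 of all genes), 0 passed an unadjusted p under 0.05 (beside 4.63%, 10% and 2.94% of all tested genes) and 0 had non-overlapping ranges (beside 2.67%, 6.81% and 1.84%). The highest estimate was that of Pmaip1 in myocyte-like nuclei, 1.13 (SE 0.65, edgeR adjusted p = 0.942), which rested on 53.7 CPM from 6 UMIs in the 29 nuclei of Minnelide tumor 4 and fell to 0.61 without that tumor. In endothelial-like nuclei Bcl2l11 gave -0.47 (SE 0.35, edgeR adjusted p = 0.640) and -0.73 without untreated tumor 1 (adjusted p = 0.435). The osteoclast-like class was not fitted. Bcl2 there was at 239 ± 157 CPM in untreated and 486 ± 128 CPM in Minnelide tumors (SD, n = 4 each). Bcl2l11 was at 229 ± 73.6 and 128 ± 59.4 CPM (SD, n = 4 each). The ranges overlapped for both genes, and these differences were not tested.

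**Figure D5:**
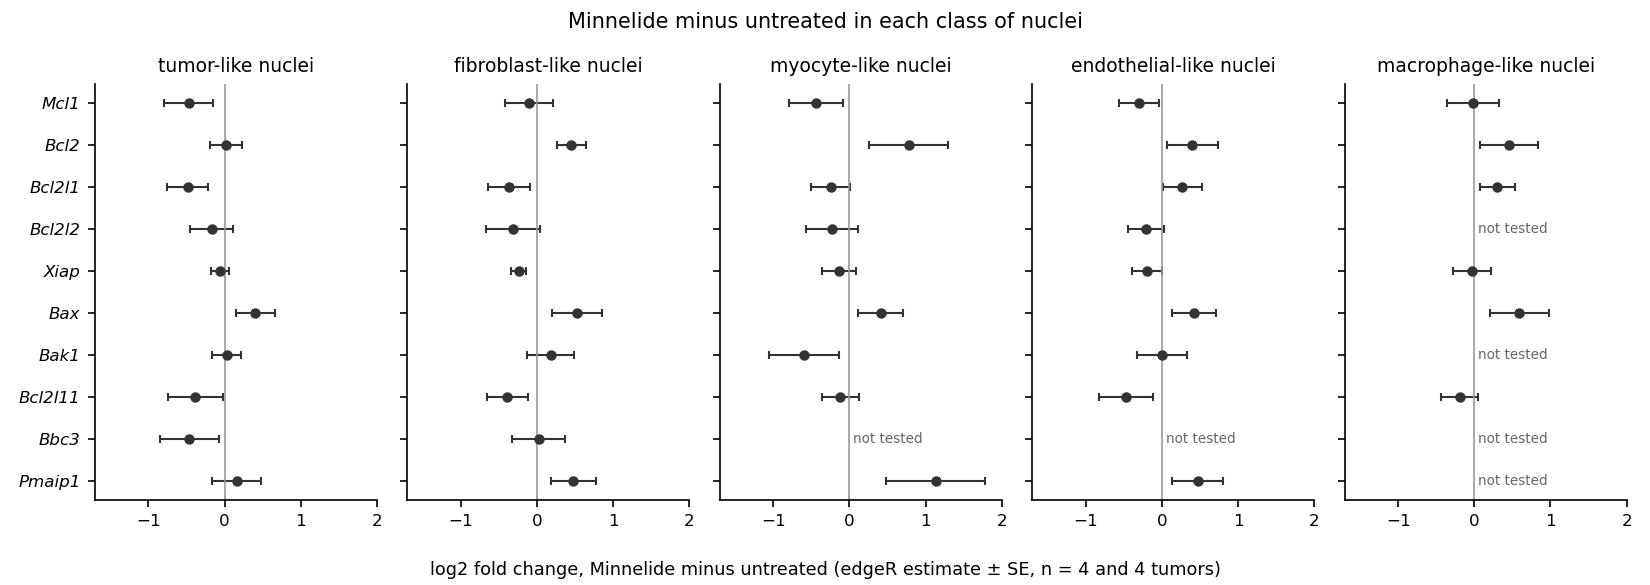
Log2 fold change of each gene, Minnelide minus untreated (edgeR estimate ± SE over 4 and 4 tumors, horizontal axis), in 5 classes of nuclei; genes that did not pass the filter on low counts are marked as not tested. Bax lies above 0 in all 5 classes (0.40 to 0.59) and Bcl2 in 5 of 5, with 0.02 in tumor-like and 0.78 in myocyte-like nuclei, and no estimate passed an adjusted p under 0.05.

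The file names of Minnelide tumors 1 and 2 carry the word responder and those of tumors 3 and 4 the word nonresponder. Such words are absent from the sample labels, so the values are set side by side without a group or a test. In tumor-like nuclei Bcl2 was at 859 and 964 CPM in the tumors with the word responder and at 993 and 1096 CPM in the other two. Bcl2l1 was at 69.9 and 63.1 against 58.5 and 48.2 CPM. The BH3-only genes Bcl2l11 (55.0 and 57.5 against 64.3 and 89.7 CPM) and Pmaip1 (12.0 and 13.4 against 17.5 and 23.8 CPM) were both higher where the word was nonresponder. Mcl1 (49.7 and 65.8 against 56.1 and 54.7 CPM), Xiap (146 and 154 against 145 and 164 CPM), Bax (41.3 and 28.8 against 47.6 and 41.4 CPM) and Bbc3 (1.53 and 3.55 against 2.55 and 4.11 CPM) were not separated by the word. Bcl2l2 and Bak1 were not separated by it either. Untreated tumors covered all 4 Minnelide values of Bcl2, Bcl2l11 and, in 3 of 4 tumors, Pmaip1. With the 2 words falling on 2 tumors each, no order of such values carries a statistical weight.

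Untreated tumor 1 was also examined in each class. Mcl1 was its most regular feature, being the highest of the 8 tumors in the sum of all nuclei and in each of the 6 named classes. It stood at 195 CPM in fibroblast-like, 209.9 in myocyte-like, 207 in endothelial-like, 363 in macrophage-like and 429.8 CPM in osteoclast-like nuclei, between 2.03 and 3.13 times the median of the other 7 tumors over the named classes. Bcl2 did not share this pattern. It was highest of the 8 tumors in tumor-like nuclei of tumor 1 (1.64 times the median of the others) but the lowest in its endothelial-like (227 CPM against 594 to 783 CPM), macrophage-like (146 CPM against 283 to 606 CPM) and osteoclast-like nuclei (82.8 CPM against 189 to 558 CPM). The tumor markers were lowest in tumor 1 in all 6 named classes, also in its tumor-like nuclei (13249.5 CPM against at least 14405 CPM), where Bcl2 was highest, and in its fibroblast-like nuclei (2375 CPM against at least 4038 CPM), where Bcl2 ranked 5 of 8. In the endothelial-like, macrophage-like and osteoclast-like nuclei they were at 2194, 2671 and 1865 CPM against at least 5476, 5426 and 3641 CPM in the other tumors. Bcl2 was among the 10 leading genes of a tumor-like cluster of 2975 nuclei (1597 CPM) and of an unnamed cluster of 2695 nuclei (699 CPM), both almost wholly from this tumor. That unnamed cluster had 253 CPM of Mcl1, more than the 176 CPM of the tumor-like cluster, and carried raised markers of several classes.

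Other genes of the pathway were taken from a list of 48, of which 46 were in the matrices and 40 could be tested in tumor-like nuclei. By edgeR 0 of the 40 were called. At an unadjusted p under 0.05, 1 was higher and 5 were lower in the Minnelide tumors, beside 2.5% and 7.74% of all tested genes. Signs split into 14 above and 26 below 0, with a median of -0.14 beside 0.00 over all tested genes, and ranges did not overlap for 7 of the 40 beside 7.68% of all genes.

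The lowest p values on the low side were those of Birc3, Xaf1 and Bik. Birc3, which encodes an inhibitor of apoptosis of the same family as XIAP, was at 72.8, 25.9, 23.3 and 25.5 CPM in the untreated and 14.1, 14.0, 18.5 and 11.3 CPM in the Minnelide tumors, so all Minnelide tumors were below all untreated ones. The log2 fold change was -1.16 (SE 0.35, edgeR adjusted p = 0.485), and -0.69 without untreated tumor 1. Xaf1, whose product antagonizes XIAP, was at 16.5, 5.31, 4.03 and 3.19 CPM against 2.34, 2.30, 1.21 and 2.59 CPM, a log2 fold change of -1.60 (SE 0.52, edgeR adjusted p = 0.485) and -0.92 without that tumor. Bik, a BH3-only gene, was at 22.7, 2.48, 2.34 and 3.56 CPM against 1.34, 1.88, 1.62 and 0.894 CPM, a log2 fold change of -2.23 (SE 0.76, edgeR adjusted p = 0.485) and -0.89 without it. For each of these 3 genes the untreated value was highest in tumor 1, at a multiple of the other untreated values, yet the remaining untreated tumors also stayed above the Minnelide tumors. For Xaf1 and Bik this rested on few UMIs. The closest Xaf1 values came from 34 UMIs in untreated tumor 4 and 29 in Minnelide tumor 4. The closest Bik values came from 25 UMIs in untreated tumor 3 and 9 in Minnelide tumor 2. These gaps were not tested against counting error. Bmf, which encodes another BH3-only protein, and Ddit3, a transcription factor of the integrated stress response, completed the 5. They are named here after their values were seen, at -1.09 (SE 0.42) and -0.68 (SE 0.25), both with an edgeR adjusted p of 0.485.

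On the high side, Casp2, an initiator caspase, was at 25.3, 32.9, 33.8 and 29.5 CPM in the untreated and 37.9, 39.3, 34.2 and 36.6 CPM in the Minnelide tumors, with no overlap, in a class where 1.03% of tested genes had every Minnelide tumor higher. Its log2 fold change was 0.41 (SE 0.17, edgeR adjusted p = 0.487), and 0.29 without untreated tumor 1. Birc5, which encodes the mitotic inhibitor of apoptosis survivin, gave 0.66 (SE 0.31, edgeR adjusted p = 0.501), and Bcl2l12, a divergent BCL2 family gene, gave 0.27 (SE 0.15, edgeR adjusted p = 0.540), and the groups overlapped for both.

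Within the list, the inhibitors of apoptosis and their antagonists had 2 estimates above and 4 below 0 (median -0.08), the apoptosome and caspase genes 3 above and 5 below (median -0.22), the other BCL2 family genes 2 above and 7 below (median -0.34), the death receptor genes 2 above and 4 below (median -0.24), the mitochondrial pore and release genes 2 above and 3 below (median -0.01), and the regulators of MCL1 stability and of BH3-only genes 3 above and 3 below (median -0.02). None of these groups held a called gene.

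Across 38 sums of a tumor and class with at least 100 nuclei, the gene most like each of the 10 in its pattern over the sums was found by Spearman's rho among 9689 genes. This description shares libraries and depth among its points and carries no test. The nearest gene was Nf1 for Bcl2 (rho 0.950), Pdia6 for Bax (0.929), Ralb for Xiap (0.920), Dram2 for Mcl1 (0.908), Git2 for Bcl2l11 (0.846), P2rx7 for Pmaip1 (0.827), Tlr7 for Bcl2l1 (0.801), Sufu for Bcl2l2 (0.710), Cltc for Bak1 (0.659) and Brap for Bbc3 (0.643). The likeness was weakest for the 2 genes with the fewest counts.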

How the data were processed

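Single-nucleus RNA sequencing of 8 tumors in 2 GEO samples was used. The authors deposited raw UMI counts per gene and nucleus. The file headers name Cell Ranger 9.0.1, while the submitters' processing notes name Cell Ranger 7.0.1, bcl2fastq 2.20 and mm39. The methods describe a 3′ kit with on-chip multiplexing, but the 19059 features held 0 ribosomal protein genes and no Malat1, so whether a probe set was counted is not settled. Each matrix was taken as 1 tumor. Tumor numbers follow file order and are names only. Of the features, 19043 were found in GENCODE release M39, whose GRCm39 coordinates are given.

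Nuclei with under 200 genes were removed, like those that a mixture model of mitochondrial share and detected genes put in its compromised part (posterior 0.75 or higher), and so were doublets at 0.8% per 1000 nuclei. Of 37475 untreated and 34863 Minnelide nuclei, 30789 and 29118 remained, more untreated nuclei than the study kept. Clustering used Scanpy 1.11.5 in Python 3.11.15 with 2000 variable genes, 30 components, 40 neighbors and Leiden resolution 1.0 (igraph 0.11.9), without the 10 genes, the pathway list and the markers. A marker was raised at 1.5-fold over the low clusters of the same tumor, after adding 20 CPM, and in at least 5% of nuclei. A name needed 3 raised markers. The rule that leaves mixed clusters unnamed was set after the clusters were seen and before the tests of the 10 genes. A pericyte-like class did not arise.

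Counts were summed per tumor and class with at least 20 nuclei and tested with edgeR 4.0.16 (TMM, filterByExpr, quasi-likelihood, Benjamini-Hochberg over all genes tested, R 4.3.3). The osteoclast-like class was not fitted, so the groups were not tested there. DESeq2 1.42.0, other scalings, filters, doublet settings, resolutions and the omission of each tumor were alternatives. The code was tested on simulated data. GEO gives 1 sample per group and no animal numbers, so p-values measure the spread between matrices. Intervals and limits for a count of 0 (3 counts) cover counting error only. Named genes were the 10 and the nearest gene to each of them. From the pathway list they were the 3 higher and the 3 lower genes with the smallest unadjusted edgeR p in tumor-like nuclei. The 10 genes and the lists were chosen with earlier results of these data known.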

Additional observations from a re-analysis of the deposited data

Results flagged for a closer look

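Within each group of 4 tumors, a sample far from its 3 neighbors was looked for by the ratio of its gap to the group's range (Dixon's limit), which chance exceeds in about 1 of 20 groups. The groups share tumors and nuclei across genes and classes. They are not independent, so the number flagged cannot be set against that rate. Of 140 groups, 18 had such a sample, and 10 of these were untreated tumor 1. That tumor was apart for Mcl1 in all nuclei (192 CPM, others 67.3 to 86.0), in tumor-like (175 CPM) and in osteoclast-like nuclei (429.8 CPM, others 127 to 144), for Bcl2l1 in all (143 CPM), tumor-like (168 CPM) and fibroblast-like nuclei (94.3 CPM, others 47.2 to 52.0), for Xiap in tumor-like (227 CPM) and osteoclast-like nuclei (410.1 CPM), for Bcl2l11 in myocyte-like nuclei (58.0 CPM, others 42.0 to 44.1), and, on the low side, for Bcl2 in endothelial-like nuclei (227 CPM, others 594 to 669).

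Minnelide tumor 4 was apart in Mcl1 (134 CPM) and Pmaip1 (53.7 CPM) of its 29 myocyte-like nuclei, and in Xiap (356 CPM, others 206 to 228) and Bcl2l2 (14.7 CPM, others 24.7 to 25.0) of its endothelial-like nuclei. Minnelide tumor 2 was apart in Bcl2l1 of endothelial-like nuclei (131 CPM, others 63.7 to 71.8) and in Bcl2 (294 CPM, others 539 to 558) and Xiap (272 CPM, others 205 to 209) of its 36 osteoclast-like nuclei. Minnelide tumor 1 was apart in Xiap of myocyte-like nuclei (143 CPM, others 107 to 113).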

How the results depend on the processing

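The count of called genes among the 10 was 0 in all 104 alternative fits, and the lowest adjusted p of any of them over the alternatives was 0.187, in endothelial-like nuclei. Over all genes edgeR called 0 in each of the 7 comparisons, with 1376, 1324, 743, 471, 949, 211 and 895 genes at an unadjusted p under 0.05 in all, tumor-like, fibroblast-like, myocyte-like, endothelial-like and macrophage-like nuclei and in the interaction, while DESeq2 called 181, 128, 30, 4, 21, 0 and 16. Leaving out 1 tumor gave 0 to 1 called genes in all and in endothelial-like nuclei (without Minnelide tumor 2 and without untreated tumor 1), and resolution 0.5 gave 1 in endothelial-like nuclei. No paired analysis was possible because the labels give no replicate numbers that tie tumors of the groups.

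Of 953 estimates for the 10 genes, 899 kept their sign and 54 reversed, none of them of a called gene. The cause was not tested. Without doublet removal the signs turned for Bcl2 in tumor-like (-0.05), Bcl2l11 in myocyte-like (0.05), Bak1 in endothelial-like (0.03) and Mcl1 in macrophage-like nuclei (0.29) and for Bcl2l11 in the interaction (-0.04), and the median of Bcl2 in macrophage-like nuclei was 544 rather than 386 CPM. Without the mixture filter they turned for Bbc3 in fibroblast-like (-0.05), Bcl2l11 (0.13), Bcl2l1 (0.01) and Bcl2l2 (0.16) in myocyte-like and Xiap in macrophage-like nuclei (0.02) and for Bcl2l11 in the interaction (-0.003). At resolution 0.5 they turned for Bcl2 in tumor-like (-0.01), Bbc3 in fibroblast-like (-0.08) and Bcl2l11 in myocyte-like nuclei (0.06), and at 2.0 for Bbc3 (-0.06) and Bcl2l11 (0.11) in those classes. Bak1 turned to 0.01 in all and in endothelial-like nuclei with RLE scaling and with DESeq2, to 0.01 in all nuclei without the myocyte-like ones and to 0.003 in endothelial-like nuclei without a filter, and Mcl1 to 0.01 in macrophage-like nuclei with DESeq2.

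Leaving out each tumor in turn crossed 0 in tumor-like nuclei for Bcl2 (-0.10 to 0.19), Bcl2l11 (-0.60 to 0.04), Bcl2l2 (-0.37 to 0.02), Pmaip1 (-0.07 to 0.43), Xiap (-0.10 to 0.02) and Bak1 (-0.03 to 0.09), in all nuclei for Bak1 (-0.12 to 0.05), in fibroblast-like nuclei for Mcl1 (-0.34 to 0.18) and Bbc3 (-0.14 to 0.26), in endothelial-like nuclei for Bak1 (-0.21 to 0.33) and Bcl2l1 (-0.04 to 0.37), in macrophage-like nuclei for Mcl1 (-0.19 to 0.41) and Xiap (-0.18 to 0.13), and in the interaction for Bcl2l1 (-0.21 to 0.04) and Bcl2l11 (-0.28 to 0.57). The 6 named pathway genes kept their direction in 90 of 90 alternatives. A stricter naming rule left no named class but the myocyte-like one, a pericyte-like comparison could not be made, and a comparison was not run where an alternative left no such class. Untreated tumor 4, at a median of 883 UMIs per nucleus, and the small macrophage-like and osteoclast-like classes limit the precision of the scarce genes.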

Other observations

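Xiap is X-linked, so genes of the Y chromosome were read in the same sums. Untreated tumor 4 had 2.44 CPM of Ddx3y, 4.69 of Uty, 1.06 of Kdm5d and 2.69 CPM of Eif2s3y over all nuclei, while the other 7 tumors had at least 63.9 CPM of Ddx3y, 216 of Uty and 109 CPM of Eif2s3y. Kdm5d was at 7.90 CPM in Minnelide tumor 1 and at 48.8 to 83.1 CPM in the remaining 6. Low values of all these Y-linked genes were thus found in 1 untreated tumor and in no Minnelide tumor. Sex was not part of the fits. Xiap in untreated tumor 4 was within the range of the other tumors, at 160.2 CPM over all nuclei and 158 CPM in tumor-like nuclei. One of the unnamed clusters, with 585 nuclei, had 390.4 CPM of Bcl2, 95.6 CPM of Mcl1 and 168 CPM of Xiap.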
